A study of Mus musculus with 27 samples.

Results

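Macrophages sorted from mammary tumours of mice given cisplatin with a control antibody were compared with macrophages from tumours of mice given the control antibody only. The 8 libraries were chosen by their titles: 4 of the 4 macrophage libraries labelled cisplatin with control antibody and 4 of the 4 macrophage libraries labelled control antibody, out of 27 libraries in the series. All tumours arose in K14cre;Cdh1F/F;Trp53F/F mice, in which cre driven by the promoter of keratin 14 deletes the genes of E-cadherin and p53 in epithelium, so the tumour cells lack p53 while the sorted macrophages are host cells. Both groups carry these alleles and both received the control antibody. Cisplatin mice had 2 injections and were taken 1 day after the last, whereas control mice were taken once the tumour had reached 100 mm2. The effect of the drug and that of the endpoint cannot be told apart. The labels used here give neither the age of the mice nor whether each library came from its own mouse. The p-values thus reflect the spread among these libraries, part or all of which may be technical. Other libraries of the series used beside these 8 were 2 of macrophages given cisplatin with anti-CSF-1R, 2 of macrophages given anti-CSF-1R only, 3 of neutrophils given cisplatin with control antibody and 4 of neutrophils given control antibody. The 4 neutrophil libraries of mice given cisplatin with anti-CSF-1R and the 4 of mice given anti-CSF-1R only entered the neutrophil fits and contributed to the estimate of the spread.

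Cisplatin crosslinks DNA, and cells that keep p53 respond to such damage by stabilising this transcription factor, which then switches on genes for cell cycle arrest, apoptosis and repair. Macrophages in a tumour divide little, engulf dying cells, and produce chemokines, complement and matrix proteins. Damaged or dying tumour cells can reach them as debris, and the drug can also act on the macrophage itself.

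Each value below is the authors' normalised read count of a gene in 1 library. Most smaller values in the deposited table had lost their decimal point, and the point was restored from what 1 read is worth in each library. A value whose place stayed uncertain was left out (3664 of 79968 values in the 8 libraries, 4.58%), and n counts the libraries that remain. Such a value may lie outside the values shown, and its possible places are given for part of the genes only. An entry of 1 in the table was taken as any value under 1. It can stand for no reads or, where 1 read is worth less than 1, for a few reads. Fold changes come from limma on log2(value + 1), fitted over all 12 macrophage libraries, and understate the change of genes with low values. Adjusted p is Benjamini-Hochberg over the 9081 genes tested, with a threshold of 0.05.

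The 8 libraries held 1297612 to 7489303 reads over cisplatin and 1621827 to 2702781 over control. On the first principal component (29.0% of the variance over 7224 genes) cisplatin replicate 2 lay at -21.3 and the other cisplatin libraries at 11.6 to 20.1, while control libraries lay at -30.8, -15.9, 9.33 and 11.4. The component did not separate the groups. Cisplatin replicate 2 was also the shallowest library and received the lowest array weight of the 8 (0.483), so list medians and calls that change without it are also given without it. This library was picked from these same data, so a gene that passes only without it gains no separate support. Control replicate 4 lay farther out on the component (-30.8) and had a weight of 0.543. Leaving out control replicate 4 gave 2 genes higher and 0 lower, against 28 and 12 without cisplatin replicate 2. Pairwise correlations across genes were 0.93 to 0.969 within cisplatin, 0.919 to 0.955 within control and 0.926 to 0.959 between the groups. Trp53 itself had 137, 117, 92.8 and 109 in cisplatin macrophages and 98.4, 123, 116 and 101 in control macrophages, overlapping (log2 fold change 0.05, turning to -0.045 without cisplatin replicate 1 and to -0.002 without control replicate 1), and a count over the whole gene does not show whether its floxed exons are intact.

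Both groups carried macrophage markers. Csf1r, the receptor for CSF-1, had 2452, 2002, 2450 and 2508 in cisplatin macrophages and 2324, 2243, 2438 and 1777 in control macrophages. The 17 macrophage markers restored in every library summed to 47002 to 76978 in cisplatin libraries and 37065 to 49488 in control libraries. Cd3d of T cells, Ms4a1 of B cells and Fcer1a of mast cells and basophils were listed at 1 in all 8. The 7 B cell markers restored in every library, Ms4a1 among them, summed to 183 to 302 in cisplatin and 159 to 263 in control libraries. Only 1 of the 7 passed the filter on low values, so most of that sum comes from 1 gene. Of 13 neutrophil markers in the table, only Csf3r, Ngp and Camp were restored in every library. Together they came to 95.1 to 254 in cisplatin and 95.3 to 305 in control libraries, nearly all of it Csf3r. S100a8 and S100a9 stayed uncertain in several libraries, S100a9 at 831 or 83.1 in control replicate 4, so this sum does not cover them. The keratins Krt14, Krt19 and Krt6a, each listed at 1 where its value is under 1, summed to 3 to 5.54 in cisplatin libraries and 3 to 37.9 in control libraries, highest in control replicate 3. In such sorted samples, fewer cells of a type and less RNA per cell cannot be told apart.

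Cisplatin macrophages had higher mRNA levels of 4 genes: Ccng1, Zmat3 and Trp53inp1, all known targets of p53, and the chemokine Ccl9. These were 4 of 9081 genes tested, which is 0.044% higher, and no gene passed lower (0%). At an unadjusted p under 0.05 there were 445 genes higher (4.9%) and 308 lower (3.39%). Among the 8649 genes with at least 3 restored values in each group, all cisplatin values lay above all control values for 253 (2.93%) and below for 175 (2.02%). The median log2 fold change over all genes tested was -0.002. When the decimal places were restored with a model that knows the groups, 13 of 9109 genes passed higher (0.143%) and 2 lower (0.022%), but in simulated libraries of this comparison 13.1% of calls made that way were false, against 7.28% without the groups. The simulation changed 200 genes per draw and gave 316 calls over 3 draws without the groups. Such shares depend on how many genes change, so they do not give the share of false calls among the 4 genes. The split was 4 higher and 1 lower after quantile normalisation and 3 and 1 with median-of-ratios scaling. With only the 8 libraries in the fit none of the 4 genes passed (limma adjusted p = 0.0977 to 0.139), and of the 4 only Ccng1 passed with no filter on low values, with the most probable place for every value or with limma-voom. The count also rested on single libraries. It was 28 higher and 12 lower without cisplatin replicate 2, 0 and 0 without cisplatin replicate 4 or without control replicate 2, 7 and 5 without control replicate 1, and 1 or 2 higher with none lower without cisplatin replicate 1, cisplatin replicate 3 or control replicate 4.

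Ccng1 encodes cyclin G1, a target of p53 that feeds back on MDM2 (chromosome 11, 40748552 to 40755311, minus strand, GRCm38). Ccng1 had 733, 646 and 693 in cisplatin replicates 1, 2 and 4, against 257, 222 and 271 in control replicates 1, 2 and 4. The restored values of the groups lay far apart, and each was tight within its group. The values left out would be 678 or 67.8 in cisplatin replicate 3 and 269 or 26.9 in control replicate 3. Ccng1 averaged 690.5 ± 43.5 in cisplatin macrophages and 250.3 ± 25.2 in control macrophages (SD, n = 3 each), a log2 fold change of 1.46 ± 0.19 SE (limma adjusted p = 0.0322). It passed in 5 of the 8 fits that left out a library, and missed without cisplatin replicate 1 (adjusted p = 0.115), cisplatin replicate 4 (0.252) and control replicate 2 (0.0787). Its log2 fold change stayed between 1.38 and 1.52 in these fits.

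Zmat3 encodes an RNA-binding zinc finger protein induced by p53 (chromosome 3, 32334792 to 32366014, minus strand). In cisplatin macrophages Zmat3 stood at 140, 129 and 186 in replicates 1, 2 and 4, and in control macrophages at 36.2, 50.3 and 25.5 in replicates 1, 2 and 3. No restored cisplatin value came near a control value. The value left out in cisplatin replicate 3 would be 925, 92.5 or 9.25, the last of these below all control values, and that in control replicate 4 would be 33.5 or 3.35. Means were 152 ± 30.04 in cisplatin and 37.3 ± 12.4 in control macrophages (SD, n = 3 each), and the log2 fold change was 2.03 ± 0.29 SE (limma adjusted p = 0.0482). Zmat3 passed in 1 of the 8 fits that left out a library, the one without cisplatin replicate 2, and in the others its adjusted p was 0.0541 to 0.252. With the most probable place entered for every uncertain value, the log2 fold change was 1.08 (adjusted p = 0.777).

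Trp53inp1, a stress protein that p53 induces and that promotes its activity and autophagy, lies on chromosome 4 (11156431 to 11174379, plus strand). Every value of it was restored: 99.7, 146, 82.9 and 114 in cisplatin macrophages, against 32.5, 28.4, 56.5 and 37.4 in control macrophages. The lowest cisplatin library stood above the highest control library. The means were 111 ± 26.98 in cisplatin and 38.7 ± 12.4 in control macrophages (SD, n = 4 each), with a log2 fold change of 1.51 ± 0.24 SE (limma adjusted p = 0.0482). Leaving out 1 library gave 1.37 to 1.71, and the gene passed in 2 of those 8 fits, without cisplatin replicate 2 or without control replicate 3, while the others gave an adjusted p of 0.0647 to 0.252.

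Ccl9 encodes a CC chemokine that attracts myeloid cells through the receptor CCR1 in mice (chromosome 11, 83572919 to 83578636, minus strand). It had 1744, 2913 and 2296 in cisplatin replicates 1, 3 and 4, against 646, 540, 563 and 281 in the control libraries. These restored values did not overlap. The value left out, in cisplatin replicate 2, would be 340, 34.0 or 3.40, and at any of these places that library would lie among or below the controls. Ccl9 averaged 2318 ± 584 (SD, n = 3) in cisplatin and 508 ± 158 (SD, n = 4) in control macrophages, a log2 fold change of 2.22 ± 0.31 SE (limma adjusted p = 0.0322). With the most probable place for that value the log2 fold change was 1.54 and the gene did not pass (adjusted p = 0.517). Ccl9 passed in 4 of the 8 fits that left out a library and missed without cisplatin replicates 1, 3 or 4 or control replicate 2 (adjusted p = 0.0599 to 0.252).

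**Figure D1:**
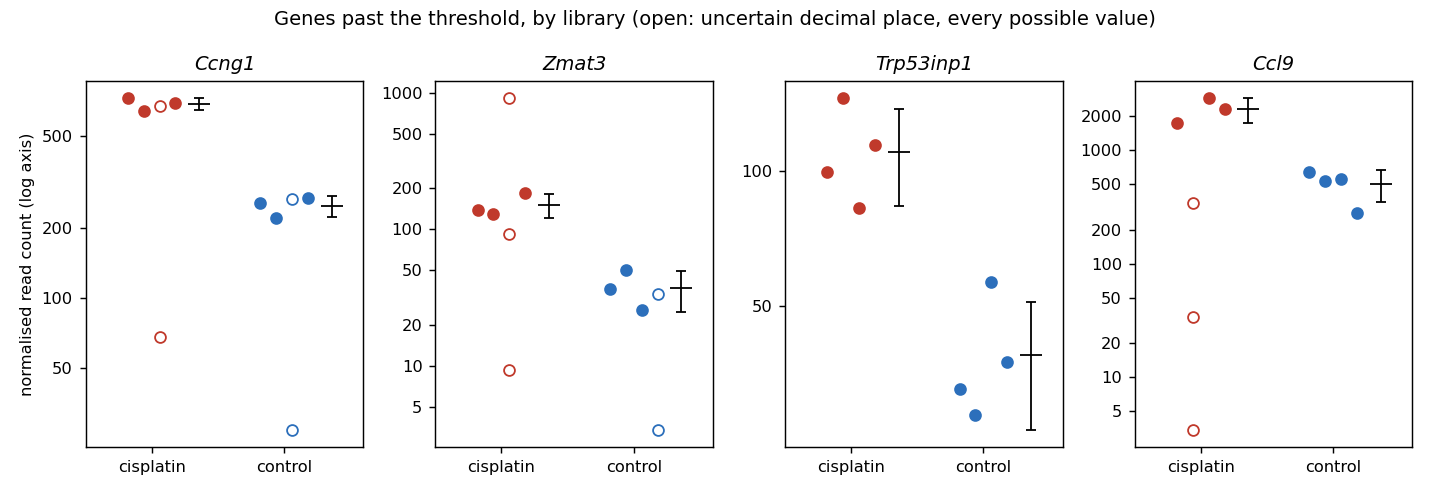
Normalised read counts of Ccng1, Zmat3, Trp53inp1 and Ccl9 (vertical log axes) in the 4 cisplatin libraries (red, left) and the 4 control libraries (blue, right) of each panel. Filled points are restored values, open points are the possible values of a library whose decimal place was uncertain, and bars are the mean and SD of the restored values; Trp53inp1 has every value restored and its lowest cisplatin value (82.9) lies above its highest control value (56.5).

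The region before the start is shown for Ccng1 and for Cdkn1a, the classical p53 target described next, because p53 binds response elements near its targets that are built from a pair of 10-base half-sites, here called the p53 decamer. The 250 bases before RefSeq's start (GRCm38.p6) of Ccng1 (chr11:40755287-40755536, minus strand) and of Cdkn1a (chr17:29090729-29090978, plus strand), are given 5′ to 3′ with each match to the decamer in capitals. RefSeq's starts differ from those of the GENCODE genes, so that the last 25 bases of the Ccng1 stretch and the last 3 of the Cdkn1a stretch lie inside the GENCODE gene.
Ccng1: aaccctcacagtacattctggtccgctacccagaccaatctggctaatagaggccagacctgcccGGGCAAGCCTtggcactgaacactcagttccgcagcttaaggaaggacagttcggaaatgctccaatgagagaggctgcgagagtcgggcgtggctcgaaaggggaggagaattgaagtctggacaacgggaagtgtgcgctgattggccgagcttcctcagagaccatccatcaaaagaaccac
Cdkn1a: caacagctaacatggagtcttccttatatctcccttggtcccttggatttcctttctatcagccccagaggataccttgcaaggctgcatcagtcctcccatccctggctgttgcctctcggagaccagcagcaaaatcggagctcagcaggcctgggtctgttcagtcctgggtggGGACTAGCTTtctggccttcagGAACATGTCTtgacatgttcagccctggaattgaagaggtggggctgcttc
The Ccng1 stretch holds 1 match and the Cdkn1a stretch 2, which do not overlap each other. The decamer reads as the same motif on both strands. In windows of 250 bases before to 50 after the start, it was found in 2745 of 32851 (8.36%), and in 11 of the 38 tested p53 target genes that have a window (28.9%). Each match is a run of letters, 1 half-site and not by itself a whole response element, and shows no binding. Only exact matches are in capitals. Near matches were not marked, such as the 10 bases directly after the second Cdkn1a match. Whether the 2 matches of Cdkn1a, or either of them with a near match, form a response element was not tested.

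The p53 target list, taken from the general knowledge of the pathway, was chosen with earlier results of these data known. Its shares beside those of all genes are thus descriptive and were not tested. The list had 41 tested members of 60, and 36 of the 41 had a log2 fold change above 0. Its median was 0.28, beside -0.002 over all genes tested. Of the 41, 3 passed (Ccng1, Zmat3 and Trp53inp1), 15 had an unadjusted p under 0.05 on the higher side (36.6%, against 4.9% of all genes) and 0 on the lower side (3.39% of all genes). Of 38 members with at least 3 restored values per group, 9 had all cisplatin values above all control values (23.7%, against 2.93%). The median deviation of the list's members from their averages over the libraries was 0.25, 0.19, 0.29 and 0.22 on the log2 scale in cisplatin macrophages and -0.24, -0.26, -0.19 and -0.01 in control macrophages. All cisplatin libraries lay above all control libraries, cisplatin replicate 2 included. Without that replicate 32 of the 41 were higher, the median was 0.39 and 4 passed. The list median ran from 0.24 to 0.50 when 1 library was left out.

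Cdkn1a encodes p21, the inhibitor of cyclin-dependent kinases through which p53 arrests the cell cycle. Cdkn1a had 1820, 2383, 2242 and 1840 in cisplatin macrophages and 594, 486, 1366 and 1344 in control macrophages. The groups did not overlap, but control replicates 3 and 4 stood well above control replicates 1 and 2. Its log2 fold change was 1.27 ± 0.32 SE and did not pass (limma adjusted p = 0.255). Phlda3, which restrains AKT signalling under p53, had 21.4, 5.67, 17.0 and 29.7 in cisplatin macrophages and 4.12, 1 and 1 in the restored control libraries, while control replicate 4 would be 112, 11.2 or 1.12. Its restored values were low throughout and its log2 fold change of 2.63 ± 0.58 SE did not pass (adjusted p = 0.213), but did without cisplatin replicate 2 (adjusted p = 0.0343).

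The remaining members divide by role. Among genes of arrest and stress control, the antiproliferative gene Tob1 had a log2 fold change of 0.67 and the metabolic stress gene Sesn2 one of 0.74, while Gadd45a, which acts in arrest and repair, had -0.73 and the phosphatase gene Ppm1d 0.11. For Gadd45a only 2 cisplatin values were restored. Its cisplatin replicate 1 would be 812, 81.2 or 8.12 and replicate 4 would be 594, 59.4 or 5.94, so its direction is uncertain. Sesn2 had 28.8, 52.2, 46.1 and 28.6 in cisplatin libraries and 26.1, 21.1, 17.2 and 25.1 in control libraries, without overlap. In the death branch, the death receptor gene Fas had 7.39, 6.81, 14.0 and 9.18 in cisplatin libraries and 4.06, 4.82 and 3.91 in the 3 restored control libraries. Control replicate 1 of Fas would be 229, 22.9 or 2.29, and 229 or 22.9 would lie above every cisplatin value. The log2 fold changes of Ei24, Bax and Apaf1 were 0.49, 0.37 and 0.28. None of these passed. Bax, the pore-forming apoptosis protein, stood at 120, 110, 102 and 86.4 in cisplatin libraries and at 55.4, 70.6, 84.7 and 124 in control libraries, which overlapped through control replicate 4. Mdm2, the ubiquitin ligase by which p53 limits itself, had 949, 967, 799 and 804 in cisplatin macrophages and 678, 372, 796 and 851 in control macrophages, also with overlap and a log2 fold change of 0.45 ± 0.25 SE. Cd80, a costimulatory ligand that is itself a p53 target, had 62.0, 101, 124 and 106 in cisplatin libraries and 35.3, 65.7 and 44.6 in the restored control libraries (log2 fold change 1.01, adjusted p = 0.301). Control replicate 3 of Cd80 would be 131 or 13.1, and 131 would lie above every cisplatin value.

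**Figure D2:**
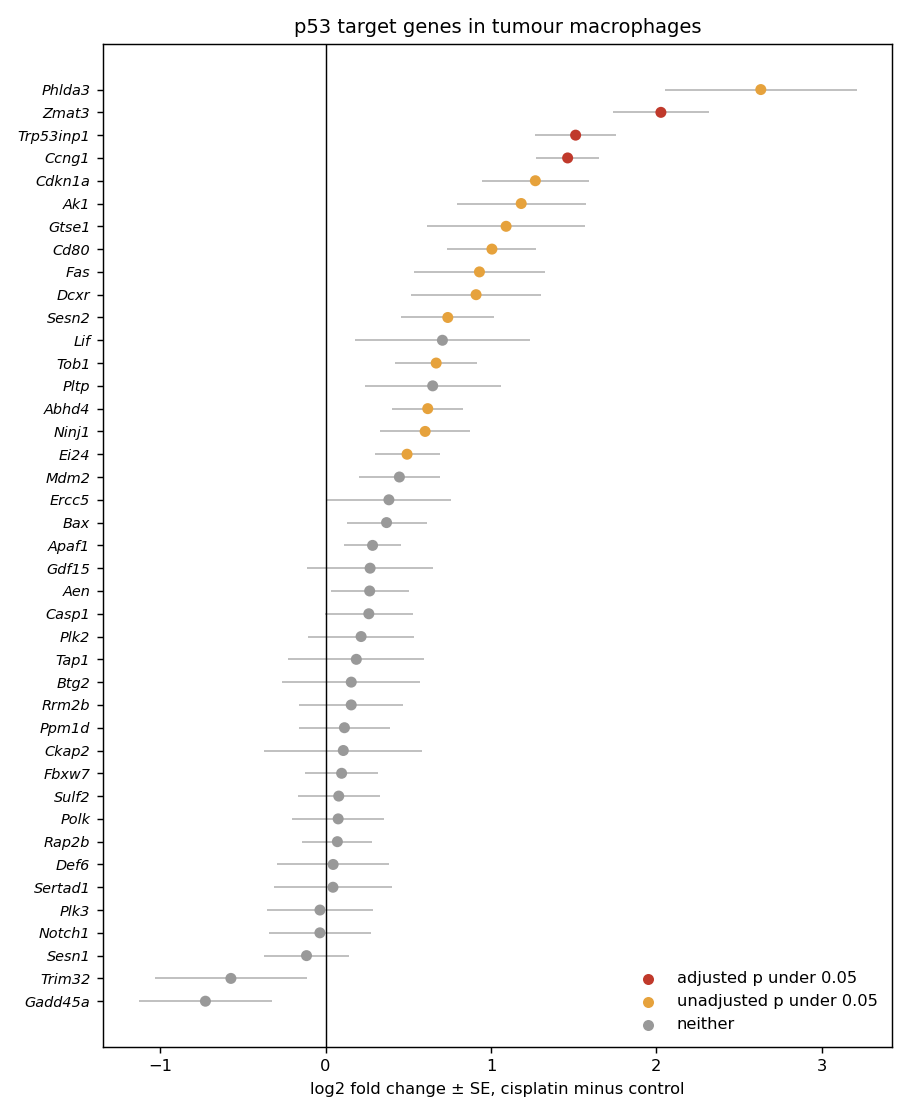
Log2 fold change with SE (horizontal axis, cisplatin minus control) of the 41 tested p53 target genes (rows). Red points passed the adjusted threshold (Ccng1, Zmat3, Trp53inp1), orange points had an unadjusted p under 0.05, grey points neither; 36 points lie right of 0.

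Genes that sense and repair DNA damage were listed apart from the p53 targets. Of 25 tested genes of DNA damage sensing and repair, 8 were higher, the median was -0.06, and 0 had an unadjusted p under 0.05 in either direction. The median lay between -0.13 and 0.04 when 1 library was left out. Parp1, a sensor of DNA breaks, had 106, 101, 89.1 and 125 in cisplatin macrophages and 158, 171, 94.3 and 134 in control macrophages, with overlapping groups. Of 13 tested members of the BCL2 family, which sets the threshold of apoptosis, 6 were higher (8 without cisplatin replicate 2) and 0 had an unadjusted p under 0.05. The survival gene Mcl1 had 2438, 2040, 3026 and 2380 in cisplatin macrophages against 2198, 1780, 2014 and 1892 in control macrophages.

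Cell cycle genes had a median log2 fold change of -0.21, with 13 of 34 tested members higher and 0 passing. At an unadjusted p under 0.05, 2 were higher (5.88%, against 4.9% of all genes) and 1 lower (3.39% of all genes). The median was -0.07 without cisplatin replicate 2, and its sign turned without cisplatin replicate 3 (0.06) and without control replicate 2 (0.08). Their levels divided both groups: the list stood at 0.11, -0.29, -0.74 and 0.68 in cisplatin libraries and at 0.48, 0.53, -0.41 and -0.48 in control libraries. Cenpf, a kinetochore protein of dividing cells, had 28.8, 12.5, 10.1 and 23.8 in cisplatin libraries and 57.2, 81.9 and 20.0 in the restored control libraries. E2f1, which drives entry into S phase, had 23.6, 25.0, 22.0 and 26.5 in cisplatin libraries and 36.6, 38.9, 28.9 and 27.9 in control libraries. Here the groups did not overlap, but the log2 fold change of -0.42 did not pass (adjusted p = 0.683).

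The same cisplatin schedule can be read in 2 other pairs of groups that share no library with the 8. In macrophages of mice given anti-CSF-1R, the combination with cisplatin was compared with anti-CSF-1R only, 2 libraries each. Ccng1 had 453 and 517 with the combination and 224 and 250.4 with anti-CSF-1R only (log2 fold change 1.03 ± 0.23 SE, adjusted p = 0.39). Trp53inp1 had 79.7 and 97.3 with the combination and 22.0 and 27.7 with anti-CSF-1R only (log2 fold change 1.79 ± 0.34 SE, adjusted p = 0.211). Both genes were higher in each combination library than in either anti-CSF-1R library. Cdkn1a had 950.4 and 1598 with the combination and 1062 and 1535 with anti-CSF-1R only, with no separation. Ccl9 stood at 1323 and 1658 with the combination and at 1221 and 618 with anti-CSF-1R only. Of 33 p53 targets tested there 21 were higher, with a median of 0.31; 8 had an unadjusted p under 0.05 on the higher side (4.05% of all 7904 genes tested did) and 1 on the lower side (4.40%). No gene passed in that comparison; 668 had an unadjusted p under 0.05.

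In neutrophils, cisplatin was compared with control antibody over 3 and 4 libraries. Trp53inp1 had 343, 614 and 355 in cisplatin neutrophils and 221, 155, 246 and 310 in control neutrophils, a log2 fold change of 0.90 ± 0.27 SE (limma adjusted p = 0.709). Ccng1 had 525, 567 and 732 in cisplatin neutrophils and 376, 435, 461 and 505 in control neutrophils (0.45 ± 0.24 SE, adjusted p = 0.722). For both genes the cisplatin neutrophils lay above the control neutrophils without overlap, but neither passed. Zmat3 overlapped, at 64.5, 25.4 and 44.2 in cisplatin neutrophils and 51.7, 24.1 and 25.9 in the restored control neutrophils. Of 38 p53 targets tested in neutrophils 27 were higher (median 0.22), with 4 higher and 3 lower at an unadjusted p under 0.05, where 3.61% and 2.99% of all 8831 genes lay. No gene passed in that comparison, and 583 had an unadjusted p under 0.05.

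The difference between these responses was tested as such. Between macrophages and neutrophils, 0 of 9485 genes passed (0%), with 485 at an unadjusted p under 0.05. Ccng1 had the log2 fold change 1.02 ± 0.31 SE larger in macrophages (limma adjusted p = 0.807) and Zmat3 1.65 ± 0.62 SE larger (adjusted p = 0.917). Between macrophages under the control antibody and under anti-CSF-1R, 0 of 7832 genes passed (0%), with 574 at an unadjusted p under 0.05. The differences were 0.44 ± 0.30 SE for Ccng1, -0.28 ± 0.42 SE for Trp53inp1 and 1.45 ± 0.51 SE for Ccl9 (adjusted p = 0.751, 0.908 and 0.657). No gene's response was thus shown to differ from that of neutrophils or of macrophages under anti-CSF-1R. With the places restored with the groups, 1 gene passed in each test: Mmp9 (-3.79, adjusted p = 0.00595) for the cell types and Etv1 (4.88, adjusted p = 0.000719) for the antibodies. For Mmp9 that way of restoring kept only 2 macrophage control values, 157 and 313.

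**Figure D3:**
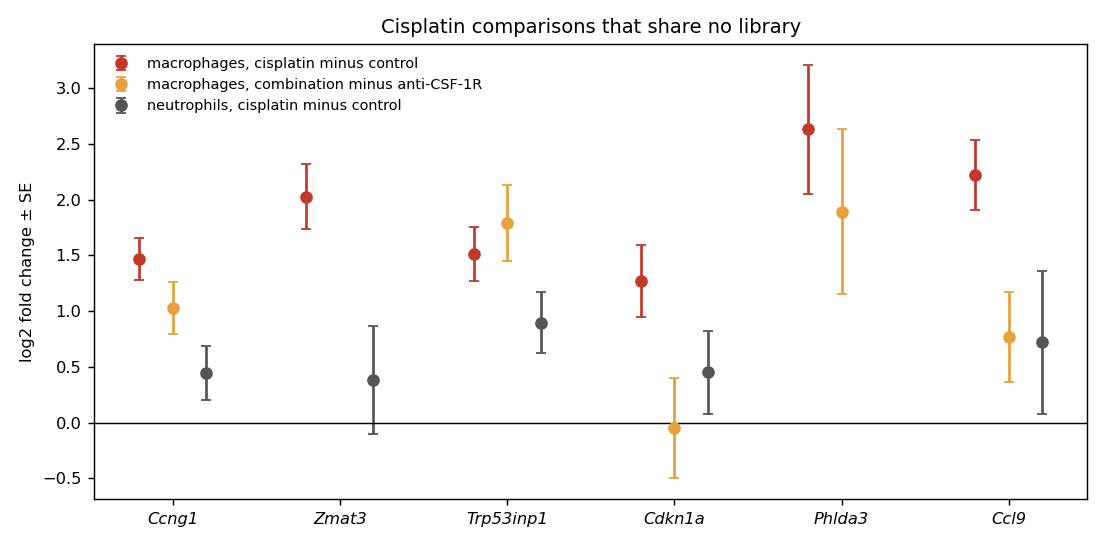
Log2 fold change with SE (vertical axis) of 6 genes in 3 comparisons that share no library: macrophages, cisplatin minus control (red), macrophages, combination minus anti-CSF-1R (orange), and neutrophils, cisplatin minus control (grey). A missing point could not be tested; Ccng1 reads 1.46, 1.03 and 0.45 and Trp53inp1 1.51, 1.79 and 0.90 in these comparisons.

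Chemokines other than Ccl9 varied between libraries. Of 17 tested CC and CXC chemokine genes 11 were higher (median 0.32) and 1 passed (Ccl9). At an unadjusted p under 0.05, 2 were higher (11.8%, against 4.9% of all genes) and 2 lower (3.39% of all genes). The median was -0.22 without cisplatin replicate 3, the deepest library. Ccl6, another CCR1 ligand of mouse myeloid cells, had 498, 311, 1689 and 592 in cisplatin macrophages and 166, 185 and 287 in the restored control libraries (log2 fold change 1.601 ± 0.45 SE, limma adjusted p = 0.346). These restored values did not overlap, but control replicate 2 would be 649, 64.9 or 6.49, and 649 would lie among the cisplatin values. Ccl2, which recruits monocytes, stood at 397, 144 and 816 in the restored cisplatin libraries and at 115, 183 and 243 in the restored control libraries, with overlap. Ppbp, the neutrophil-attracting CXCL7, had 4.43, 6.81 and 13.1 in the restored cisplatin libraries and 10.99, 15.4 and 57.8 in the restored control libraries (log2 fold change -1.42, adjusted p = 0.556).

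Complement genes were mostly higher: 11 of 13 tested, median 0.41, 3 at an unadjusted p under 0.05 on the higher side (23.1%, against 4.9% of all genes) and 0 passing. The receptor for the fragment C5a, C5ar1, had 2083, 989.5, 2293 and 1806 in cisplatin macrophages and 1117, 1079, 832 and 597 in control macrophages. All but cisplatin replicate 2 lay above the controls. C1qc, a subunit of the initiator C1q, stood at 2794, 2806, 4058 and 3002 in cisplatin macrophages and at 2047, 2114, 2332 and 2860 in control macrophages.

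Glucocorticoid-induced genes had a median of 0.44 with 14 of 19 tested members higher, 6 higher (31.6%, against 4.9% of all genes) and 1 lower (3.39% of all genes) at an unadjusted p under 0.05, and 0 passing. The median was 0.18 without cisplatin replicate 3. Fkbp5, a chaperone of the glucocorticoid receptor and a standard marker of its activity, had 36.2, 234 and 186 in cisplatin replicates 1, 3 and 4 and 44.9, 31.6, 26.2 and 23.4 in control macrophages. Cisplatin replicate 1 lay among the controls and replicates 3 and 4 far above them. Without cisplatin replicate 1 the log2 fold change was 2.73 and the only gene that passed was Fkbp5 (adjusted p = 0.0375), against 1.90 ± 0.52 SE and an adjusted p of 0.346 with it. Klf9, a transcription factor induced by the receptor, had 17.7, 17.0, 53.4 and 35.1 in cisplatin libraries and 7.78, 11.4, 16.5 and 10.6 in control libraries, without overlap (log2 fold change 1.23, adjusted p = 0.361). The metallothionein gene Mt2 had 98.2, 238 and 61.0 in the restored cisplatin libraries and 29.8, 46.8 and 29.0 in the restored control libraries. Its cisplatin replicate 2 would be 340, 34.0 or 3.40 and its control replicate 2 would be 892, 89.2 or 8.92, so the groups may overlap. Cebpd had 8.12, 6.81, 8.39 and 7.56 in cisplatin libraries and 8.24, 12.98, 20.0 and 21.2 in control libraries (log2 fold change -0.85, adjusted p = 0.489).

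Genes of alternative activation, the state linked to tissue repair, gave 13 of 18 tested members higher, a median of 0.29, and 4 higher and 1 lower at an unadjusted p under 0.05, where 4.9% and 3.39% of all genes lay. Leaving out cisplatin replicate 3 gave a median of 0.04, and leaving out cisplatin replicate 2 gave 0.50. Arg1, arginase 1, had 1162, 328, 3555 and 727 in cisplatin macrophages and 314, 139, 211 and 192 in control macrophages. The groups did not overlap, but the cisplatin libraries spanned more than the difference between the groups, and the log2 fold change of 2.28 ± 0.63 SE did not pass (limma adjusted p = 0.325). Lyve1, a hyaluronan receptor of tissue-resident macrophages, had 53.2, 47.7, 61.1 and 61.0 in cisplatin macrophages and 16.9, 10.3 and 1 in the restored control libraries. Control replicate 2 would be 811, 81.1 or 8.11, and 811 or 81.1 would lie above every cisplatin value. Lyve1 was tight in the cisplatin group and did not pass (log2 fold change 2.93 ± 0.59 SE, adjusted p = 0.173). Mgl2, a lectin of the same list, had 35.2, 15.9 and 1 in the restored cisplatin libraries and 15.6, 41.4, 61.3 and 146 in control libraries. Fn1, fibronectin, on the monocyte list, stood at 9806, 5507, 12602 and 12181 in cisplatin macrophages and 4541, 1145, 3234 and 3003 in control macrophages. It did not overlap either, with a log2 fold change of 1.84 ± 0.41 SE (adjusted p = 0.212), and passed without cisplatin replicate 2 (2.10, adjusted p = 0.0417).

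MHC class II genes, by which macrophages present antigen to T helper cells, had the lowest median among the lists with at least 5 tested members, -0.63, with 1 of 9 tested members higher and 0 at an unadjusted p under 0.05. Leaving out cisplatin replicate 2 gave a median of -1.07, and leaving out cisplatin replicate 1 gave -0.14. H2-Ab1, a class II chain, had 408, 4242, 2150 and 278 in cisplatin macrophages and 1195, 765, 4705 and 6210 in control macrophages. Each group held 2 libraries high and 2 low, the low ones being cisplatin replicates 1 and 4 and control replicates 1 and 2. Cd74, the invariant chain, was high and low in the same libraries, at 2758, 23249, 13542 and 1709 in cisplatin macrophages and 5908, 4217, 19791 and 18415 in control macrophages. With a spread this wide within both groups, a difference between cisplatin and control was not detectable (H2-Ab1 log2 fold change -1.17 ± 0.79 SE, limma adjusted p = 0.765). All 11 tested genes of MHC class I presentation had a log2 fold change above 0, but the median was 0.11 and 0 had an unadjusted p under 0.05. Without cisplatin replicate 2 only 7 of the 11 were higher, and without cisplatin replicate 3 the median was -0.02.

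**Figure D4:**
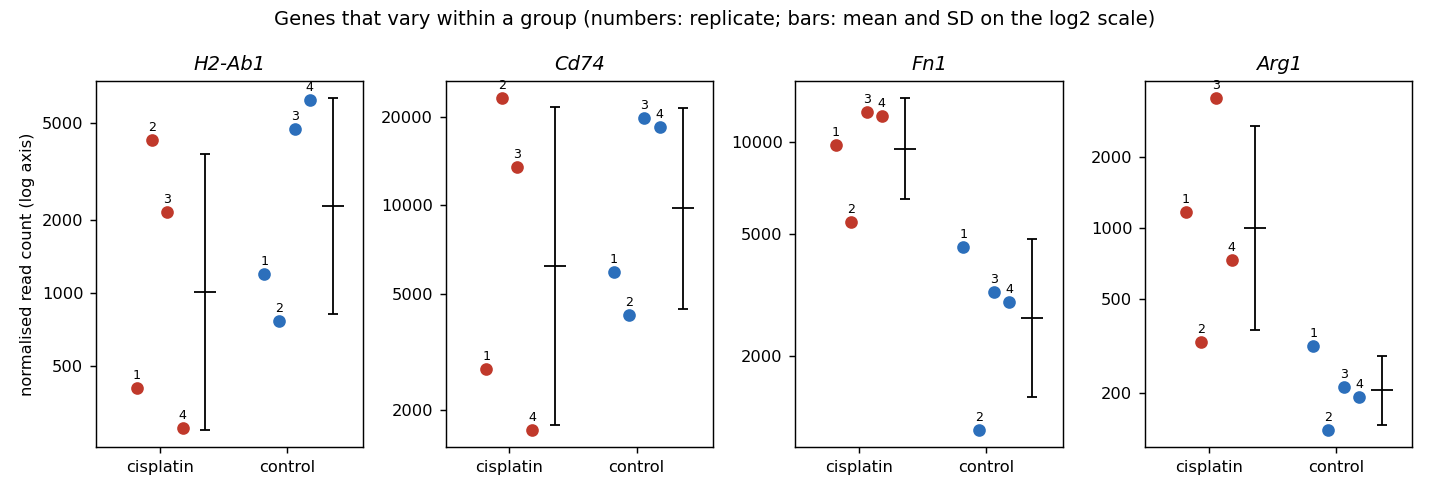
Normalised read counts (vertical log axes) of H2-Ab1, Cd74, Fn1 and Arg1 in the cisplatin libraries (red, left) and the control libraries (blue, right), numbered by replicate, with the mean and SD on the log2 scale as bars. H2-Ab1 and Cd74 are low in cisplatin replicates 1 and 4 and in control replicates 1 and 2, while Fn1 and Arg1 do not overlap between the groups.

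Type I interferon-stimulated genes gave 23 of 38 tested members higher and a median of 0.15. At an unadjusted p under 0.05, 3 were higher (7.89%, against 4.9% of all genes) and 1 lower (3.39% of all genes). The direction turned without cisplatin replicate 2, to a median of -0.03 with 19 of 38 higher, and the median was 0.69 without control replicate 4. Ifitm3, an antiviral membrane protein, had 1100, 860, 1840 and 1166 in cisplatin macrophages and 826, 155, 401 and 835 in control macrophages, without overlap (log2 fold change 1.39 ± 0.43 SE, limma adjusted p = 0.413). The list itself was highest in a control library, at 0.99 in control replicate 4, and between -0.26 and 0.66 in the cisplatin libraries. Of 21 inflammatory cytokines and NF-kB targets 11 were higher (median 0.04, and -0.16 with 9 higher without cisplatin replicate 2). On the higher side, 3 had an unadjusted p under 0.05 (14.3%, against 4.9% of all genes). Among them was osteopontin, Spp1, at 1024, 1524, 1792 and 1594 in cisplatin macrophages and 441, 282, 671 and 1237 in control macrophages.

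Of the 18 tested macrophage markers 17 were higher (median 0.35), 6 of them at an unadjusted p under 0.05 (33.3%, against 4.9% of all genes) and 0 passing. Adgre1, the marker F4/80, had 746, 683, 790.3 and 650.1 in cisplatin macrophages and 574, 501, 474 and 608 in control macrophages, without overlap. Lyz2, lysozyme, had 24341, 13370, 36772 and 34750 in cisplatin macrophages and 13128, 14933, 17438 and 11807 in control macrophages, where cisplatin replicate 2 lay among the controls. The marker list stood at 0.12, 0.06, 0.48 and 0.12 in cisplatin libraries and at -0.30, -0.31, -0.19 and 0.02 in control libraries. Like the p53 and complement lists and the monocyte list of 5 tested members, it was higher in every cisplatin library than in any control library. The lysosome and lipid list was not, with -0.12 in cisplatin replicate 4 and 0.14 in control replicate 4. The marker list itself holds C1qc, described above with complement, and Trem2, described below with the lysosome and lipid genes. Its part in the results of these lists was not tested. Of 28 lysosome and lipid genes 19 were higher (median 0.16, and 0.09 with 16 higher without cisplatin replicate 2). On the higher side, 6 had an unadjusted p under 0.05 (21.4%, against 4.9% of all genes). Among them was Trem2, a lipid receptor, at 250, 176, 286 and 253 in cisplatin macrophages and 164, 87.5 and 163 in the restored control libraries. Control replicate 2 of Trem2 would be 892, 89.2 or 8.92, and 892 would lie above every cisplatin value. Among lower values, Txnrd1, thioredoxin reductase, had 168 and 110 in the 2 restored cisplatin libraries and 256, 530 and 567 in the 3 restored control libraries. Its cisplatin replicate 1 would be 303 or 30.3, cisplatin replicate 2 would be 420 or 42.0 and control replicate 1 would be 293 or 29.3, so the groups may overlap. The transferrin receptor gene Tfrc had 75.3, 28.4, 28.8 and 30.2 in cisplatin macrophages and 105, 137 and 60.8 in the restored control libraries. The heat shock gene Hsph1 had 253, 211, 179 and 157 in cisplatin macrophages and 186, 426, 424 and 649 in control macrophages, overlapping through control replicate 1.

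**Figure D5:**
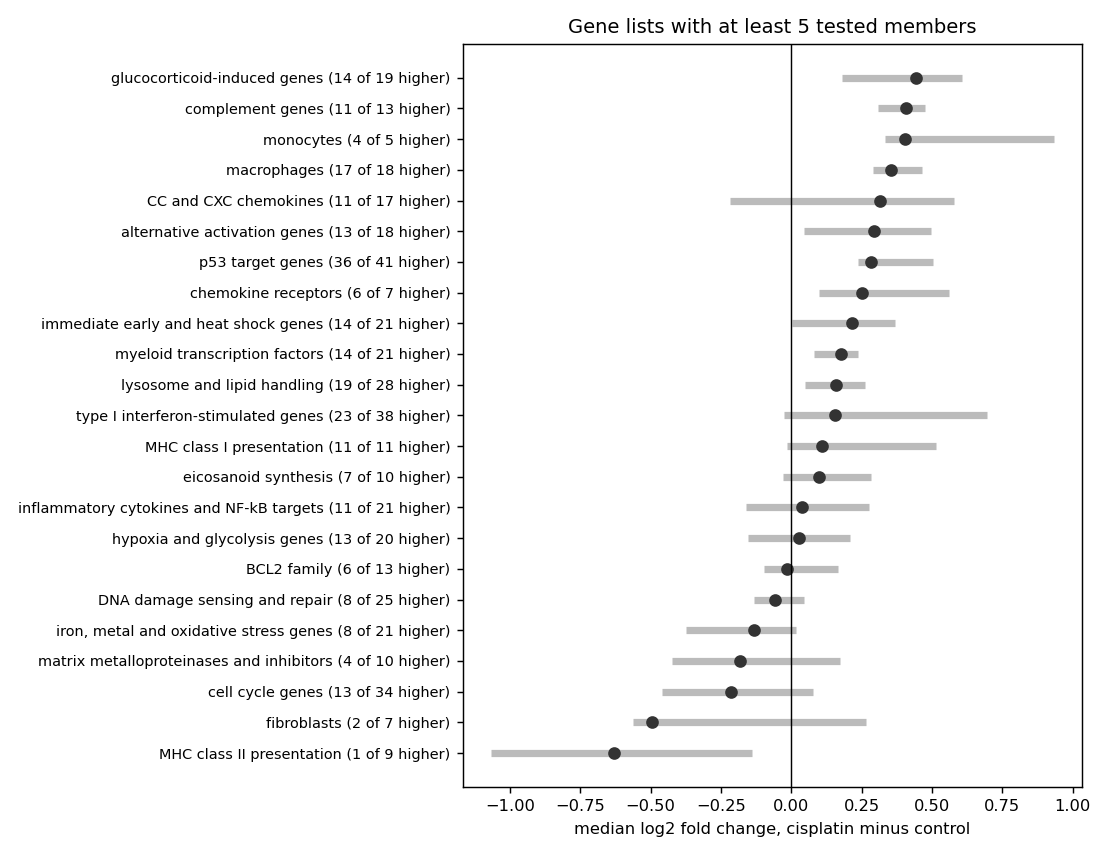
Median log2 fold change (horizontal axis, cisplatin minus control) of each gene list with at least 5 tested members (points), with the range of that median over the fits that leave out 1 library (grey bars). Row labels give how many tested members lay above 0; the list medians run from -0.63 (MHC class II presentation) to 0.44 (glucocorticoid-induced genes), and the p53 targets are at 0.28.

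Several single genes came close to the threshold, and each of the 4 described here passed without cisplatin replicate 2 (limma adjusted p = 0.0223 for Cd300a, 0.0294 for Gda, 0.0168 for Epb4.1l1 and 0.0416 for Lsp1). Cd300a, an inhibitory receptor of myeloid cells, was the nearest on the lower side, with 130, 123 and 102 in cisplatin replicates 1, 3 and 4 against 255, 221, 367 and 322 in control macrophages. The restored values did not overlap, but cisplatin replicate 2 would be 363 or 36.3 (log2 fold change -1.27 ± 0.21 SE, limma adjusted p = 0.0548). Cd300a also passed with a pseudocount of 8, quantile normalisation, median-of-ratios scaling, array weights, the places restored with the groups, and without control replicate 1 (adjusted p = 0.0107 to 0.0491). Gda, guanine deaminase, had 612, 783 and 679 in the restored cisplatin libraries and 296, 179, 205 and 138 in control macrophages (1.799 ± 0.30 SE, adjusted p = 0.0589). Its cisplatin replicate 2 would be 227, 22.7 or 2.27, each of which would lie among or below the controls. Epb4.1l1, which encodes a protein of the submembrane skeleton, had 67.9, 44.3, 74.9 and 93.4 in cisplatin macrophages and 15.1, 17.0 and 22.7 in the restored control libraries (1.85 ± 0.29 SE, adjusted p = 0.0589). These restored values did not overlap, but control replicate 4 would be 117 or 11.7, and 117 would lie above every cisplatin value. Lsp1, an actin-binding protein of leukocytes, had 121, 138 and 147 in the restored cisplatin libraries and 37.1, 59.9 and 49.7 in the restored control libraries (1.47 ± 0.25 SE, adjusted p = 0.0825). Its values left out would be 126 or 12.6 in cisplatin replicate 1 and 162, 16.2 or 1.62 in control replicate 2.

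Some genes passed only where the decimal places were restored with the groups. Etv1, an ETS transcription factor, had 177, 152 and 196 in cisplatin replicates 1, 3 and 4, while every control value was uncertain. With the groups these become 11.4, 5.68, 15.8 and 5.02 in control macrophages, and the log2 fold change 4.21 (adjusted p = 1.13e-05), but the same entries also allow 114, 568, 158 and 502. Alox5, the 5-lipoxygenase that starts leukotriene synthesis, had 91.6, 142 and 161 in the restored cisplatin libraries and 17.9 in the only restored control library. With the groups its log2 fold change was 3.47 (adjusted p = 0.00493). Mmp9, a gelatinase, had 31.8 in the only restored cisplatin library and 29.8, 157 and 313 in the restored control libraries. With the groups its log2 fold change was -3.45 (adjusted p = 0.00716). That fit left out the 29.8 of control replicate 1, which lies below the 31.8 of cisplatin replicate 1, and kept 157 and 313. None of these 3 could be tested without the groups when uncertain values were left out, and with the most probable place of every value instead their adjusted p was 0.202, 0.54 and 0.598 in this order.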

How the data were processed

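The values the authors deposited are a normalised signal: in each library they are multiples of what 1 read is worth, as read counts divided by a size factor would be. Per the submitters' processing notes, CASAVA 1.8, TopHat2 2.0.11, Partek 6.6, R 3.3.1 and DESeq2 were used with build mm10, with their roles not given in the sources used here. Per the labels' protocols, RNA of sorted cells (10 ng) was made into libraries with Ovation RNA-seq V2 and Encore Rapid and sequenced on a HiSeq 1500.

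Of the deposited macrophage values, 64.4% had a moved decimal point. Each place was restored by requiring whole reads with a negative binomial likelihood for every gene, and values with a place probability under 0.95 were left out. In 3 simulated draws, each with 200 genes changed 2- or 4-fold, 0.117% of kept values were wrong, against 64.0% as printed. Restoring with a model over the groups gave 55 false calls of 420 (13.1%), above the limit of 10% set for it, so the groups were not used (23 of 316 false, 7.28%). At 4-fold 79.2% and at 2-fold 28.3% of changed genes were recovered.

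Genes with at least 10 in at least 2 of the 12 macrophage libraries and at least 2 restored values in both groups entered a two-sided limma test (version 3.58.1, R 4.3.3, eBayes with trend) of log2(value + 1), with the 4 macrophage groups in 1 fit. Comparisons between cell types used 27 libraries. Alternatives covered pseudocount, filter, scaling, libraries, weights, decimal places and each library left out. Named genes were those that passed in either way of restoring, the 4 members of each list with the smallest p, any that passed, fixed markers, and genes near the threshold chosen after their values were seen; the text names part of these. Members and the 32 gene lists were chosen with earlier results of these data known. Replicate numbers come from accession order and pair no samples. Positions are from GENCODE for GRCm38. Other steps used Python 3.11.15, numpy 2.4.6, pandas 2.3.3, scipy 1.17.1 and matplotlib 3.10.9. Some results are not reported here.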

Additional observations from a re-analysis of the deposited data

Results flagged for a closer look

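Of 111 groups of 4 values tested for a sample far from the others, 5 stood out, and chance flags about 1 in 20 such groups. AI839979, an uncharacterised gene, had 6.81 in cisplatin replicate 2, far below the 28.8, 29.7 and 34.6 of the other cisplatin libraries. Without that library AI839979 passed (log2 fold change 2.74, limma adjusted p = 0.0387, against 0.297 with it). Csf1r, the CSF-1 receptor gene, had 2002 in cisplatin replicate 2, below the 2452, 2450 and 2508 of the others. Tfrc, the transferrin receptor gene, had 75.3 in cisplatin replicate 1, far above the 28.4, 28.8 and 30.2 of the others. Fli1, an ETS transcription factor, had 161 in cisplatin replicate 3, below the 177, 177 and 175 of the others, which are close together. Cd300ld, an activating myeloid receptor, had 592 in cisplatin replicate 3, above the 416, 424 and 409 of the others.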

How the results depend on the processing

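Against 4 genes higher and 0 lower, 1 was higher with no filter on low values, 0 with only the 8 libraries in the fit (707 at an unadjusted p under 0.05), 1 with the most probable place for every value, 1 with limma-voom, 25 with array weights and 13 with places restored with the groups, while 0 to 28 were higher with 1 library left out. Lower were 1 with a pseudocount of 8, 1 with quantile normalisation, 1 with median-of-ratios scaling, 10 with array weights and 2 with the groups, and 0 to 12 with 1 library left out. With the groups, 1 gene was lower in the test against neutrophils and 1 higher in the test against anti-CSF-1R. The causes were not tested, except that 8 libraries leave fewer samples for the spread. The remaining counts lay within 1.5 times, including those with a mean per library in the model of the places, an alternative chosen after seeing the data.

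List medians that moved by more than the replicate spread were those of p53 targets (0.39 with array weights, 0.24 to 0.50 with 1 library left out), chemokines (-0.22 to 0.58 with 1 library left out), chemokine receptors (0.10 to 0.56), monocyte markers (0.87 with array weights, the most probable place or voom, 0.33 to 0.93 with 1 library left out), eosinophil markers (-0.75 with voom) and fibroblast markers (0.36 with voom, -0.56 to 0.27 with 1 library left out). Ccng1, Ccl9, Zmat3 and Trp53inp1 kept a positive fold change in every setting run. Of the genes named, 6 changed sign somewhere, none of them past the threshold there: Csf1r (-0.13 with quantile normalisation), Dcn (0.51 with voom) and, with 1 library left out, Trp53 (-0.045 to 0.14), Ppm1d (-0.11 to 0.31), Csf3r (-0.30 to 0.28) and Slc40a1 (-4.24 to 0.15).

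No paired analysis was possible because the replicate numbers only follow the order of the samples. Besides limma-voom, which used the restored reads at their most probable place, a further planned count model was not run. Whole reads could not be recovered for the share of values it required. Depth limits low genes: 1 read is worth 0.215 to 1.13 in cisplatin libraries and 0.458 to 0.811 in control libraries.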

Other observations

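Outside the lists described above, Slc2a6, a sugar transporter gene, had 65.7, 63.1 and 67.5 in the 3 restored cisplatin libraries and 19.2 and 11.7 in the 2 restored control libraries (log2 fold change 2.05 ± 0.35 SE, limma adjusted p = 0.0986). Its control replicate 2 would be 243, 24.3 or 2.43 and its control replicate 3 would be 207, 20.7 or 2.07, so the groups may overlap. Gga2, an adaptor of trafficking to lysosomes, had 53.2, 31.8, 33.6 and 43.7 in cisplatin macrophages and 86.5, 120.1, 116 and 76.4 in control macrophages, without overlap (-1.28 ± 0.24 SE, adjusted p = 0.0986). Nr1h3, the nuclear receptor LXR alpha, had 32.5, 18.3 and 20.0 in the restored cisplatin libraries and 45.3, 55.2, 47.5 and 34.0 in control macrophages (-0.94 ± 0.27 SE, adjusted p = 0.346). Cisplatin replicate 2 of Nr1h3 would be 113, 11.3 or 1.13, and 113 would lie above every control value. None of the 3 passed, but Slc2a6 did without cisplatin replicate 2 (adjusted p = 0.037).

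Of 20 tested hypoxia and glycolysis genes 13 were higher (median 0.03, and -0.03 without cisplatin replicate 2), and of 10 matrix metalloproteinases and inhibitors 4 were higher (median -0.18, and -0.35 without cisplatin replicate 2). The median was 0.10 for eicosanoid synthesis (7 of 10 higher), 0.18 for myeloid transcription factors (14 of 21), 0.22 for immediate early and heat shock genes (14 of 21), 0.25 for chemokine receptors (6 of 7), 0.40 for monocyte markers (4 of 5) and -0.13 for iron, metal and oxidative stress genes (8 of 21), and no member of these lists passed. Without cisplatin replicate 2 the median of the immediate early and heat shock genes was 0.002 and that of the monocyte markers 0.93. Besides Fn1, 2 members then passed: Alox5ap, which presents the substrate to 5-lipoxygenase, higher (log2 fold change 1.77, limma adjusted p = 0.0343), and the iron exporter gene Slc40a1, lower (-4.24, adjusted p = 0.0343) with 1 cisplatin value left. Mmp14, a membrane-bound collagenase, had 270.3, 516, 248 and 172 in cisplatin macrophages and 299.5, 671, 718 and 413 in control macrophages. Of 7 tested fibroblast markers 2 were higher (median -0.50), and Dcn, decorin, had 3.69, 1, 9.90 and 10.3 in cisplatin macrophages and 21.1 and 6.89 in the 2 restored control libraries.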
